A study of Mus musculus with 40 samples.

Results

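Replacement histones, the oocyte linker histone and 2 factors that place histones were followed in mouse oocytes that had lost G9A, or both G9A and GLP. The set was chosen by name and holds 10 genes: the linker histones H1foo and H1f0, the histone H3.3 genes H3f3a and H3f3b, the H2A variant genes H2afz, H2afv, H2afx and H2afy, and the chaperone genes Hira and Npm2. A gene was counted as measured when a transcript locus of the RNA table carried its name on the same strand. That held for 8 of the 10 genes, among 14062 genes named in the table and 38540 loci in all. Hira and H2afx carried no such row, and the loci at their positions are described below.

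The samples were fully grown oocytes at the germinal vesicle stage, taken before meiotic maturation from mice of 22 to 25 days, with 100 to 200 oocytes pooled per sample. G9A (gene Ehmt2) and GLP (gene Ehmt1) are partner enzymes that add 2 methyl groups to lysine 9 of histone H3, the mark H3K9me2. RNA was sequenced from 3 libraries with a conditional deletion of G9a (G9a cKO), 2 with a conditional deletion of both genes (G9a-Glp cDKO, here cDKO) and 6 controls. The titles of 3 controls begin with GKAO, as do those of the G9a cKO, and the titles of the other 3 begin with GKAQ, as do those of the cDKO. Controls of the same title prefix served as the reference for each mutant. H3K9me2 was mapped in 2 libraries each of control, G9a cKO and cDKO. The labels name neither the Cre driver nor the floxed alleles that the controls may carry, and they do not say which libraries came from separate mice. The p-values therefore measure the spread between these libraries, which may be technical in part.

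Canonical histones are made in S phase from clustered genes whose messages end in a stem-loop instead of a poly(A) tail. Replacement histones are made throughout the cell cycle from polyadenylated messages, which makes them the supply for a growing oocyte that does not replicate its DNA. H1foo encodes the linker histone specific to oocytes and early embryos, and H1f0 a linker histone of cells that have stopped dividing. H3.3 is placed outside S phase by the HIRA complex or by DAXX and ATRX. H2A.Z (H2afz, H2afv) sits around transcription starts, H2AX (H2afx) is phosphorylated at DNA breaks, and macroH2A1 (H2afy) carries a large extra domain and is linked to silent chromatin. NPM2, nucleoplasmin, is an egg chaperone of H2A and H2B.

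Promoter sequences of 3 members are printed to set the oocyte linker histone gene beside the widely used H3.3 genes, whose RNA is described together below. Each is the 250 bases before the RefSeq start in GRCm38.p6, read 5′ to 3′ on the strand of the gene. Capitals mark matches on either strand to CCAAT, to the GC box GGGCGG, to the E-box CANNTG and to TATAAA. The windows are chr6:115944681-115944930 on the plus strand for H1foo, chr1:180813606-180813855 on the minus strand for H3f3a and chr11:116024505-116024754 on the minus strand for H3f3b.
H1foo: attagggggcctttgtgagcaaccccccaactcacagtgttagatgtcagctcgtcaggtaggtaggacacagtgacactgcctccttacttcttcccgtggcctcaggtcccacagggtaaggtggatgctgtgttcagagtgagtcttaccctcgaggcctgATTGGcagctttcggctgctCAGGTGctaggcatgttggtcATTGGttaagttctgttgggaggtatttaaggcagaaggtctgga
H3f3a: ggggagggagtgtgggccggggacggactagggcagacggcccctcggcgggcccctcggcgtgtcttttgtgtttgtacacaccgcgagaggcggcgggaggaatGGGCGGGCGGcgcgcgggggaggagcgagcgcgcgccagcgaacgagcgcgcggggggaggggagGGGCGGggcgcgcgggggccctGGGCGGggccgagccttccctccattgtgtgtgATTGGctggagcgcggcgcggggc
H3f3b: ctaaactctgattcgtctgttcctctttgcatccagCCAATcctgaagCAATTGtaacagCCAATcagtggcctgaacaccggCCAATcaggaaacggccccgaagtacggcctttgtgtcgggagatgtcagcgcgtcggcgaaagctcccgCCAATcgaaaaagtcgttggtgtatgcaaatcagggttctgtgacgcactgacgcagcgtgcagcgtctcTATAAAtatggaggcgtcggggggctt
The H1foo window held 4 CpG dinucleotides and 53.2% G and C. Its CpG count was 0.231 of that expected from its base composition, at the 34.1th percentile of 32851 RefSeq promoters, whose median was 0.373. H3f3a had 35 CpGs, 77.2% G and C and a ratio of 1.05 at the 96.3th percentile, and H3f3b had 19 CpGs, 54% G and C and a ratio of 1.04 at the 96.0th percentile. The other members with a RefSeq promoter had ratios from 0.700 (H1f0) to 1.05 (H2afz), so H1foo had the lowest ratio of the 7 members matched. Npm2, the gene of the egg chaperone, had no promoter sequence to compare.

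The motifs differed between the H3.3 genes. H3f3a had 4 GC boxes, of which the pair farthest from the start shares 2 bases, and 1 CCAAT match. H3f3b had 4 CCAAT matches, 1 E-box and a TATAAA that begins 27 bases before the start, and no GC box. H1foo had 2 CCAAT matches and 1 E-box. The share of all RefSeq promoters with a match in the same window was 66.2% for the E-box, 33.8% for CCAAT, 32.7% for the GC box and 12.4% for TATAAA. The letters bound by the oocyte factor NOBOX, TAATTG and TAATTA on either strand, were found in none of these 3 windows, against 7.17% and 4.84% of all promoters. The assembled oocyte loci of H1foo and H3f3a begin upstream of the RefSeq start by 291 and 576 bases and cover these windows whole. The H3f3b window lies inside the outer RefSeq limits of the gene, which also hold a start farther upstream.

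RNA libraries were scaled to totals of 1458868 to 2399680 reads, and values are given as reads scaled to the library total (RPM). Ehmt1 RNA fell in the cDKO (log2 fold change -2.06, adjusted p = 1.09e-21, limma with Benjamini-Hochberg adjustment over all loci). Ehmt2 gave only 2 to 30 reads per library, and G9a cKO replicate 2, at 6.01 RPM, lay within its controls' 5.27 to 8.23 RPM. Of 14 oocyte markers, 13 were matched, each at a mean of 10 RPM or more over all RNA libraries. Their summed level was 16426 to 16801 RPM in GKAO controls, 17255 to 18009 RPM in G9a cKO, 14794 to 15462 RPM in GKAQ controls and 15037 to 15294 RPM in cDKO. The 12 granulosa and cumulus markers summed to 185 to 197, 137 to 162, 134 to 160 and 116 to 145 RPM in the same order. The 6 theca and stroma markers matched, of 8 listed, summed to at most 5.00 RPM, with Col3a1 at 0. Only 3 of 8 blood and immune markers were matched, and they summed to at most 0.546 RPM, with Hba-a1 and Cd52 at 0. The GKAQ and GKAO controls themselves differed at 3.87% of loci and at 14.8% of those with a mean of at least 10 RPM.

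In the G9a cKO, 1 of the 8 measured members passed the test at an adjusted p under 0.05, H1foo, which was lower. Of all loci, 1.79% were called and 0.737% were called lower, and 5.22% were called of the 9091 loci with a mean of at least 10 RPM. In the cDKO, 3 of 8 passed, H3f3a and H3f3b higher and Npm2 lower, against 6.34% of all loci and 15.8% of those with at least 10 RPM. Of all loci in the cDKO, 4.32% were called higher and 2.02% lower. All members except H2afz reached 10 RPM. The median log2 fold change of the 8 members was -0.17 in the G9a cKO and 0.23 in the cDKO, where the median over loci of at least 10 RPM was 0.0077 and 0.05. Over all loci, many without reads and set to 0.9 read by the authors, it was -0.31 and 0.20. No member passed the test between the 2 sets of controls with limma, where 3 had an unadjusted p under 0.05 and voom weights also called 0. In a pool of oocytes, a lower level per cell and fewer oocytes with the RNA cannot be told apart. Reads are not divided by transcript length, so the levels of different genes are not ranked.

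**Figure D1:**
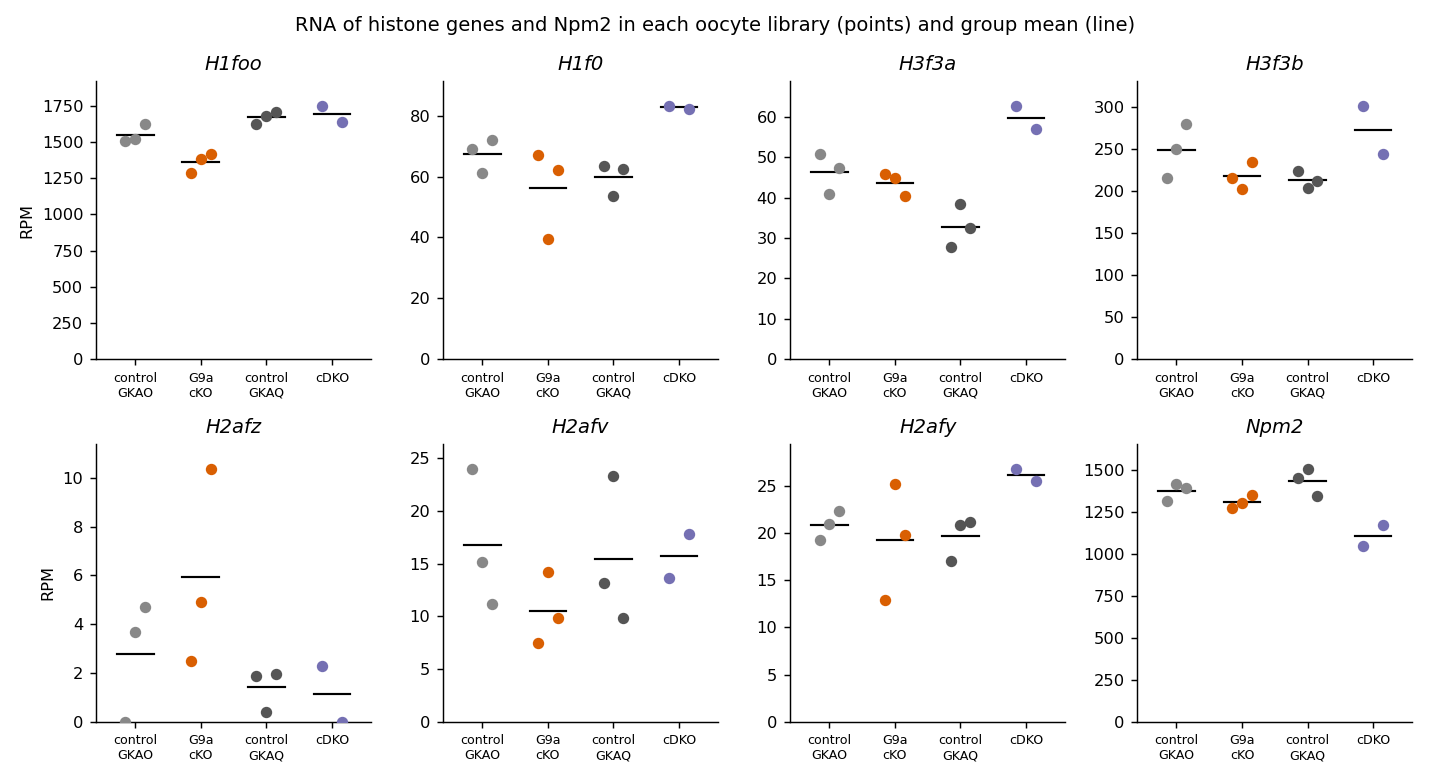
RNA of the 8 measured members in RPM (vertical axes from 0, each on its own scale), with 1 point per library and a line at the group mean. The cDKO points lie above those of the GKAQ controls for H1f0, H3f3a, H3f3b and H2afy and below them for Npm2, while the G9a cKO points of H1foo lie below those of the GKAO controls.

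H1foo, the oocyte linker histone, was lower in the G9a cKO by a small amount. Its locus (chr6:115944640-115952282, plus strand) gave 1506, 1521 and 1623 RPM in the GKAO controls and 1287, 1381 and 1421 RPM in the G9a cKO. The 3 mutant libraries all lay below the lowest control. On the log2 scale the change was -0.19 (SE 0.05, adjusted p = 0.0123), so that RNA fell by 12.1%, while the summed oocyte markers were higher in the same libraries. Libraries whose titles begin with GKAO109 gave 1506 and 1521 RPM in controls against 1287 RPM in the mutant, and those with GKAO115 gave 1623 RPM against 1381 and 1421 RPM, the same order in both. The call is not firm: the adjusted p was 0.159 without GKAO control replicate 3, 0.229 without G9a cKO replicate 1, and above 0.05 in 6 of 20 other settings.

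H1foo in the cDKO was 1747 and 1636 RPM, against 1625, 1681 and 1709.9 RPM in the GKAQ controls. These ranges overlap. The change was 0.02 on the log2 scale (SE 0.05, 95% interval -0.09 to 0.12, adjusted p = 0.83), and its sign turned to -0.08 and -0.06 under the other 2 scalings. The difference between the effects in the 2 mutants was 0.20 (adjusted p = 0.169) and was not called.

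H1f0, the linker histone of resting cells, did not pass the test in either mutant. Its locus begins 1198 bases before the RefSeq start of the gene and runs 7844 bases past the RefSeq end. H1f0 values in the cDKO were 83.1 and 82.4 RPM against 63.5, 53.8 and 62.6 RPM in the GKAQ controls. Both mutant libraries were above all 3 controls (log2 fold change 0.47, SE 0.19, adjusted p = 0.139). The G9a cKO gave 67.2, 39.3 and 62.2 RPM against 69.2, 61.3 and 72.1 RPM, with overlapping ranges and 1 low library, replicate 2 (-0.30, SE 0.17, adjusted p = 0.23). H1f0 and H1foo, the linker histones measured among the members, thus gave 1 call in 4 tests of a mutant.

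The H3.3 genes were both higher in the cDKO. H3f3a (chr1:180803024-180814181, minus strand) gave 62.6 and 56.9 RPM in the cDKO against 27.7, 38.3 and 32.5 RPM in the GKAQ controls. Both mutant libraries exceeded every control library of either prefix. This is a rise of 0.88 on the log2 scale (SE 0.22, adjusted p = 0.00329), or 1.83-fold. Without cDKO replicate 1 it was 0.81 with an adjusted p of 0.0761, and against all 6 controls 0.62 with an adjusted p of 0.0812. The GKAQ controls lay below the GKAO controls, at 50.7, 40.8 and 47.5 RPM, without overlap, but this difference was not called (-0.50, adjusted p = 0.186). H3f3a in the G9a cKO gave 45.9, 44.8 and 40.5 RPM, within or just below the range of its controls (-0.08, SE 0.20, adjusted p = 0.804). The difference between the effects was 0.95 (adjusted p = 0.0934).

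H3f3b encodes the same H3.3 protein. Its locus (chr11:116019596-116030762, minus strand) begins 4723 bases before the outer RefSeq start and runs 2365 bases past the RefSeq end. It gave 301 and 244 RPM in the cDKO against 223, 204 and 212 RPM in the GKAQ controls. The 2 groups do not overlap, yet cDKO replicate 2 lies inside the 215, 249.8 and 279.5 RPM of the GKAO controls. This is a rise of 0.35 on the log2 scale (SE 0.11, adjusted p = 0.0392). It was 0.25 and 0.27 under the other 2 scalings, with adjusted p-values of 0.228 and 0.175. The adjusted p was 0.0514, 0.167 and 0.114 without GKAQ control replicate 1, 2 or 3 and 0.694 without cDKO replicate 1, and the call was lost in 11 of 20 other settings.

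H3f3b in the G9a cKO gave 216, 203 and 234 RPM, overlapping its controls (-0.18, SE 0.10, adjusted p = 0.23). The effect in the cDKO minus that in the G9a cKO was 0.53 (SE 0.15, adjusted p = 0.0483), against 1.08% of all loci and 3.34% of those with at least 10 RPM called for that difference. This call was lost without GKAO control replicate 2 (adjusted p = 0.0978) or 3 (0.234), G9a cKO replicate 1 (0.0961) or 2 (0.0953), GKAQ control replicate 2 (0.156) or 3 (0.123), or cDKO replicate 1 (0.287).

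Added together, H3f3a and H3f3b gave 363 and 301 RPM in the cDKO and 242 to 251 RPM in the GKAQ controls. The sum was 266 to 327 RPM in the GKAO controls and 247 to 275 RPM in the G9a cKO, which overlap. The cDKO sums are thus above the GKAQ controls, but the lower of the cDKO sums is inside the GKAO range. H3f3a supplied 17.2% and 18.9% of these reads in the cDKO, 11% to 15.8% in the GKAQ controls, 14.1% to 19.1% in the GKAO controls and 14.8% to 18.1% in the G9a cKO. Part of the H3f3a locus, 7103 of 11158 bases, is also covered by a locus on the other strand with 16 to 56 reads per library, which was not called (log2 fold change 0.34 in the cDKO, adjusted p = 0.565). Whether reads were counted by strand is not given in the sources used here.

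HIRA, the H3.3 chaperone, has no row of its own name. A locus at chr16:18876686-18970309 on the plus strand begins 64 bases before the RefSeq start of Hira and ends at the same base, but carries the name of Mrpl40, a gene of the other strand. It was picked after its values were seen. It gave 33 to 45.2 RPM in all 11 libraries, and both mutants lay within their controls. The log2 fold change was -0.03 in the G9a cKO (SE 0.21, 95% interval -0.44 to 0.39, adjusted p = 0.944) and -0.13 in the cDKO (SE 0.24, 95% interval -0.60 to 0.33, adjusted p = 0.711).

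**Figure D2:**
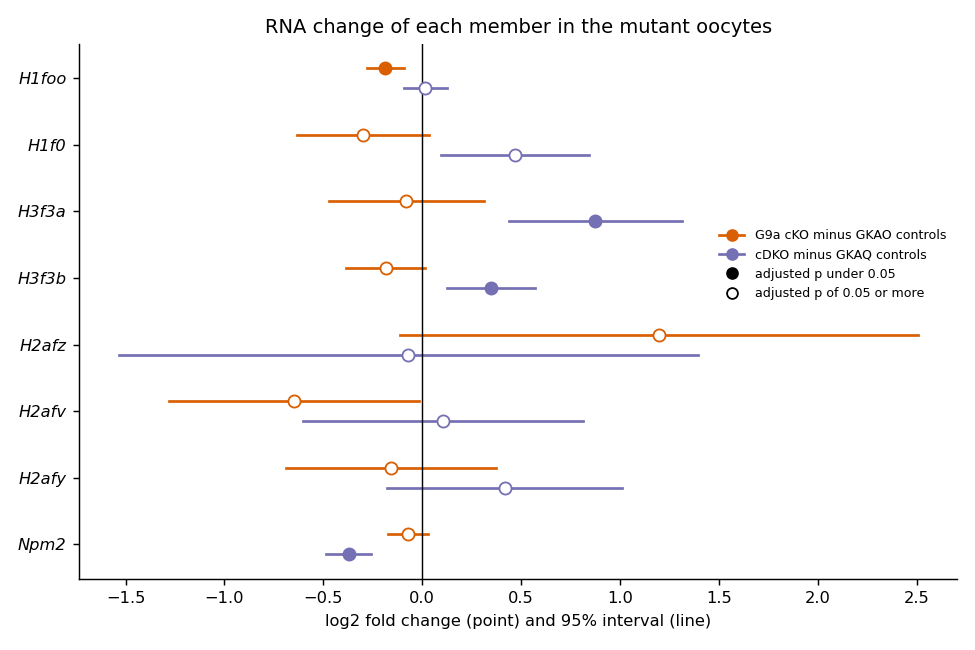
Log2 fold change (points) and 95% interval (lines) of each measured member in the G9a cKO (orange) and the cDKO (violet), filled where the adjusted p was under 0.05. H1foo is filled in the G9a cKO, and H3f3a, H3f3b and Npm2 are filled in the cDKO, with Npm2 on the lower side.

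None of the measured H2A variant genes passed the test in either mutant with limma. H2afv, an H2A.Z gene, gave 7.51, 14.2 and 9.89 RPM in the G9a cKO against 24.0, 15.2 and 11.1 RPM in the GKAO controls, which overlap. Its log2 fold change was -0.65 (SE 0.32), with an unadjusted p of 0.0448 and an adjusted p of 0.23, and it rested on 18 to 35 reads per library. In the cDKO it was 13.7 and 17.8 RPM, within the 9.86 to 23.3 RPM of the GKAQ controls.

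H2afz, the other H2A.Z gene, gave 0 to 22 reads per library and was the only measured member with a mean under 10 RPM. The counts were 0, 7 and 8 reads in the GKAO controls and 6, 9 and 22 in the G9a cKO. The ranges overlap, and the adjusted p was 0.23 for a log2 fold change of 1.2 (SE 0.67), a value that depends on the 0.9 read the authors gave to loci without reads. In the GKAQ controls and the cDKO it gave at most 4 reads, so a change there was not detectable at this depth.

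H2afy, the macroH2A1 gene, gave 26.8 and 25.5 RPM in the cDKO against 17.0, 20.8 and 21.2 RPM in the GKAQ controls. Both mutant libraries were above all 3 controls, but the adjusted p was 0.565 (log2 fold change 0.42, SE 0.30). The G9a cKO ranged from 12.9 to 25.1 RPM around controls of 19.2 to 22.3 RPM. The H2afy locus, with 27 to 50 reads per library, runs 60569 bases past the RefSeq end of the gene. A locus on the other strand, with 8 to 25 reads, also covers 71178 of its 122966 bases. That other locus was not called (log2 fold change 0.46 in the cDKO, adjusted p = 0.565). H2afx has no row, since its RefSeq position on chromosome 9, from 44334715 to 44336077, lies inside the locus named Dpagt1, and its reads cannot be separated there. That locus, also picked after its values were seen, was not called (0.15 and 0.36 in the 2 mutants, adjusted p = 0.618 and 0.539).

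Npm2, nucleoplasmin, was lower in the cDKO. Its locus (chr14:70647293-70653303, minus strand) gave 1049 and 1172 RPM in the cDKO against 1456, 1508 and 1347 RPM in the GKAQ controls. Both mutant libraries were below every other library of the series, since the GKAO controls gave 1319, 1416 and 1396 RPM and the G9a cKO 1277, 1308 and 1350.4 RPM. On the log2 scale RNA fell by 0.37 (SE 0.06, adjusted p = 2.58e-08), and the RPM level dropped by 22.8%. The call held in 19 of 20 other settings and was lost only when the variance was not allowed to follow the level and outlying variances were not damped (adjusted p = 0.259). The locus begins 8499 bases downstream of the outer RefSeq start of the gene.

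Npm2 in the G9a cKO had a log2 fold change of -0.07 (SE 0.05, 95% interval -0.17 to 0.03, adjusted p = 0.329), with overlapping groups. The effect in the cDKO minus that in the G9a cKO was -0.30 (SE 0.08, adjusted p = 0.0154). This call was lost without GKAO control replicate 1 (adjusted p = 0.0785), G9a cKO replicate 3 (0.0679), GKAQ control replicate 2 (0.133) or cDKO replicate 1 (0.186).

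Among the 7 members with at least 10 RPM, the groups did not overlap for 5 in the cDKO comparison, against 48.6% of loci at that level. For the G9a cKO it held for 1 of 7, against 25.2%. The cDKO comparison has only 2 mutant libraries, and what made separation of the groups this common was not tested.

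**Figure D3:**
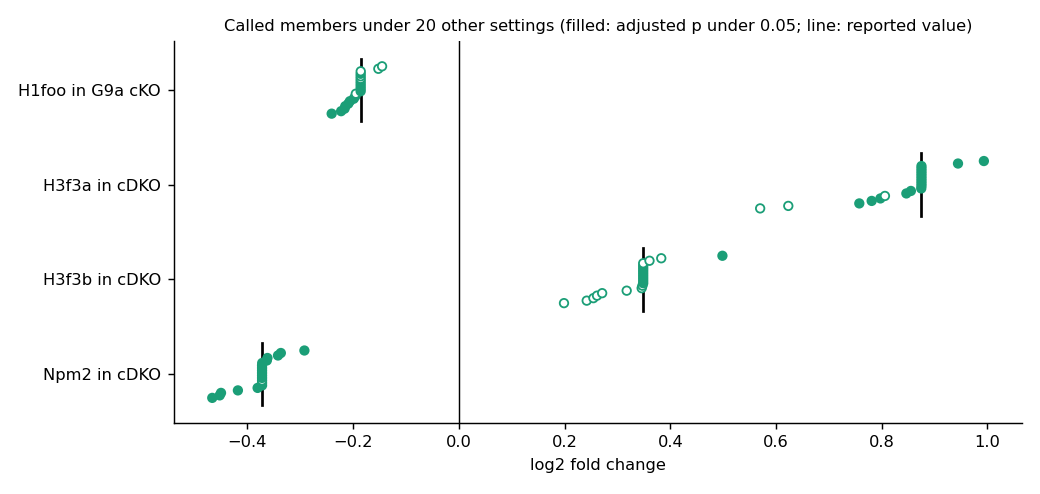
Log2 fold change of the 4 called members under 20 other settings (points, filled where the adjusted p was under 0.05), with a black line at the reported value. The direction of all 4 held in the settings drawn. Npm2 lost its call in 1 setting, H3f3a in 3, H1foo in 6 and H3f3b in 11.

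Genes whose proteins carry histones were compared next, from lists written by name. Of 16 genes for H3-H4 chaperones and their partners, 14 were matched, all with at least 10 RPM. In the cDKO 2 rose and 5 fell. The median log2 fold change of the list was -0.24, against 0.05 over loci of at least 10 RPM. The G9a cKO had 1 lower and none higher, with a median of -0.04. Between the 2 sets of controls 5 of the 14 were called, 4 higher and 1 lower in the GKAQ controls. Of the 9091 loci of at least 10 RPM, 15.8% were called in the cDKO, 785 higher and 653 lower. In the G9a cKO 5.22% of them were called, 258 higher and 217 lower, and between the controls 14.8%.

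Hjurp, the chaperone of the centromeric histone CENP-A, fell in both mutants. It gave 273 to 282 RPM in the cDKO against 517 to 567 RPM in the GKAQ controls (log2 fold change -0.96, SE 0.09, adjusted p = 9.59e-22), and 273 to 337 RPM in the G9a cKO against 424 to 461 RPM in the GKAO controls (-0.58, SE 0.08, adjusted p = 3.13e-09). No groups overlap in either comparison. The difference between these effects was not called (-0.38, adjusted p = 0.13).

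Chaf1a, the large subunit of the CAF-1 complex that places H3 and H4 at replicating DNA, fell in the cDKO from 896 to 1094 RPM in the controls to 570.3 to 690.1 RPM (log2 fold change -0.63, SE 0.07, adjusted p = 5.00e-17). In the G9a cKO its log2 fold change was -0.04 (adjusted p = 0.682). The test of cDKO effect minus G9a cKO effect called it (-0.59, SE 0.09, adjusted p = 3.25e-07), but not with log2(RPM + 1), without the variance trend or with voom weights (adjusted p = 0.258, 0.232 and 0.103). Cabin1, a subunit of the HIRA complex, fell in the cDKO by 0.55 on the log2 scale (SE 0.12, adjusted p = 0.000408), and its adjusted p was 0.0562 without cDKO replicate 2. The HIRA partners Ubn1 and Ubn2 had log2 fold changes of -0.19 and -0.30 (adjusted p = 0.4 and 0.37). Nasp and Rbbp7, named here because the count was small, fell by 0.30 and 0.31 on the log2 scale, but gave -0.13 (adjusted p = 0.425) and -0.05 (adjusted p = 0.899) against all 6 controls, and Rbbp7 was not called without cDKO replicate 1 (adjusted p = 0.132).

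Daxx, the H3.3 chaperone that works with ATRX, rose in the cDKO, from 48.4 to 71.0 RPM in the GKAQ controls to 83.6 to 97.9 RPM (log2 fold change 0.65, SE 0.19, adjusted p = 0.0116). Without cDKO replicate 1, GKAQ control replicate 1 or GKAQ control replicate 2 its adjusted p was 0.219, 0.117 and 0.0529. Atrx itself had a log2 fold change of 0.05 (adjusted p = 0.706). Hat1, which acetylates new histone H4, rose from 77.4 to 82.3 RPM to 138 to 149.7 RPM (0.85, SE 0.15, adjusted p = 2.20e-06) and stayed called against all 6 controls (0.57, adjusted p = 0.00952), although its GKAQ controls were below the GKAO controls (-0.56, adjusted p = 0.00196).

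Of 19 genes for H2A-H2B chaperones and H2A.Z exchange, 16 were matched and 15 had at least 10 RPM. In the cDKO Nap1l1, a carrier of H2A and H2B, rose, and Anp32e and Vps72 fell. That is a share of the list near the 15.8% of loci of at least 10 RPM. Between the 2 sets of controls 4 of the 16 were called, all 4 higher in the GKAQ controls. Anp32e removes H2A.Z from chromatin and Vps72 carries H2A.Z for the SRCAP complex. Vps72 fell from 158 to 177 RPM to 87.1 to 117 RPM (log2 fold change -0.71, SE 0.13, adjusted p = 1.30e-05). Anp32e fell from 44.2 to 59.1 RPM to 26.1 to 30.2 RPM (-0.85, SE 0.25, adjusted p = 0.0138), with adjusted p-values of 0.128 and 0.157 without GKAQ control replicate 3 or cDKO replicate 2. Nap1l1 gave 228 to 266 RPM against 172 to 199 RPM (0.41, SE 0.12, adjusted p = 0.0171), with adjusted p-values of 0.0564, 0.133 and 0.335 without GKAQ control replicate 2 or 3 or cDKO replicate 2.

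Npm1 and Npm3, the paralogs of Npm2, had log2 fold changes of -0.11 and -0.12 in the cDKO (adjusted p = 0.565 and 0.57). Only Set, which encodes a histone chaperone, passed from this list in the G9a cKO: 21.3 to 34.2 RPM against 9.95 to 22.6 RPM, which overlap (0.95, SE 0.28, adjusted p = 0.0354). That call was lost in 11 of 20 other settings, with the adjusted p at 0.362 without G9a cKO replicate 1, 0.0856 without replicate 3, 0.151 and 0.211 without GKAO control replicate 2 or 3, and 0.0516 without GKAQ control replicate 2.

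**Figure D4:**
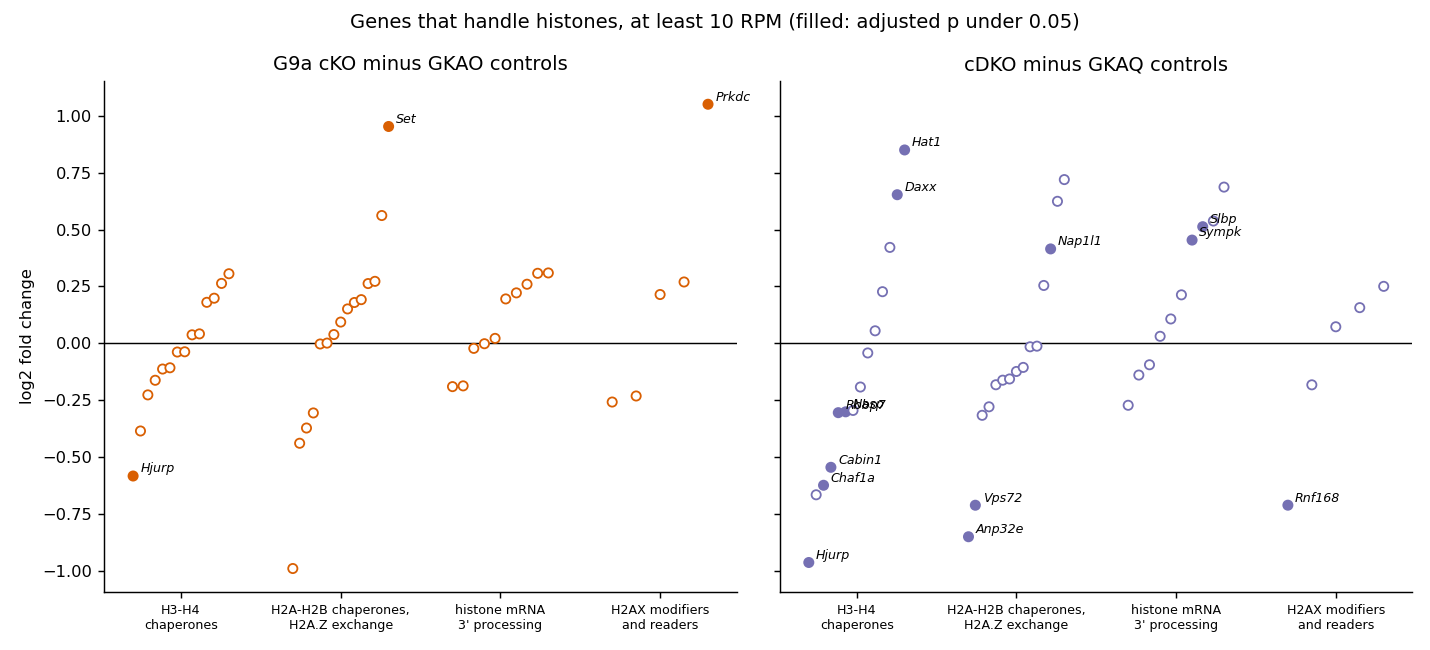
Log2 fold change (vertical axis) of matched genes with at least 10 RPM in 4 lists (columns), in the G9a cKO on the left and the cDKO on the right, filled and named where the adjusted p was under 0.05. The H3-H4 chaperones of the cDKO hold 7 filled points, 5 of them below 0, and the same list in the G9a cKO holds 1, Hjurp.

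Of 11 genes listed for making, processing or trimming canonical histone messages, 10 were matched. In the cDKO 2 of them rose, a share near the 15.8% called among loci of at least 10 RPM. Slbp, the protein that binds the stem-loop of histone messages, gave 1061 and 1228 RPM in the 2 cDKO libraries against 783 to 825 RPM in the GKAQ controls (log2 fold change 0.51, SE 0.06, adjusted p = 5.32e-14). Its GKAO controls gave 1266 to 1374 RPM, above the cDKO, and against all 6 controls the value was 0.15 (adjusted p = 0.874). Sympk, a scaffold of the cleavage complex, rose by 0.45 (SE 0.14, adjusted p = 0.0251), with adjusted p-values of 0.0706 and 0.163 without GKAQ control replicate 1 or 3 and 0.234 and 0.0506 without cDKO replicate 1 or 2. For the G9a cKO, limma called 0 of the 10, with 1 at an unadjusted p under 0.05, and voom weights called 0.

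Of 8 genes listed for H2AX and the response to DNA breaks, 5 were matched. Prkdc, a kinase that phosphorylates H2AX, rose in the G9a cKO from 14.6 to 15.1 RPM to 25.5 to 33.9 RPM (log2 fold change 1.05, SE 0.26, adjusted p = 0.00708). Its adjusted p was 0.0865 and 0.0657 without G9a cKO replicate 2 or 3. Rnf168, which ubiquitinates H2A next to breaks, fell in the cDKO from 316 to 380.5 RPM to 206 to 226 RPM (-0.71, SE 0.11, adjusted p = 1.54e-08). Its GKAO controls, at 228 to 291 RPM, were also below the GKAQ controls. Of 24 other histone genes, 13 were matched and 9 of these were under 10 RPM. Limma called 0 of them in each mutant, with 1 at an unadjusted p under 0.05 in each, and voom weights called 0.

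H3K9me2 was read over the 10 kb windows that overlap each member's locus. Scaling by library depth means that the values show how the reads of each H3K9me2 library spread along the genome, and not the total amount of the mark. Input and IgG libraries were not used to correct them, so background reads were not subtracted. Here each value is divided by the median window of its library. In controls the members lay near that median: the lowest was H3f3b at 0.643 and 0.619, and the highest H1foo at 1.21 and 1.03. The depth differed widely, with 7048784 and 19128881 reads in the controls against 1109191 to 1881848 in the mutant libraries. The log2 fold changes and tests below used reads scaled to depth, without division by the median window. That window held 3.97 and 4.03 RPM in the controls and 3.23 to 3.72 RPM in the mutant libraries. The ratios of mutants to controls therefore look higher than the fitted fold changes.

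In the G9a cKO, 3 of the 8 members passed the test, all higher: H2afz, H2afv and H2afy, against 12.9% of 14967 named loci called and 9.27% called higher. In the cDKO 3 of 8 passed, also all higher: H2afv, H2afy and H3f3b, against 6.05% called and 5.42% called higher. Both comparisons share the 2 control libraries. Leaving out any H3K9me2 library leaves 1 in its group. Without a control or a cDKO library, calls were lost at members and across named loci alike. Such fits cannot decide whether a member's call holds, and only their effect sizes are given below. The members' median log2 fold change was 0.50 and 0.55, where that of the named loci was 0.05 and 0.18.

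H2afy, which spans 13 windows, gave 1.95 and 1.65 in the G9a cKO, 1.82 and 1.70 in the cDKO and 1.07 and 0.911 in the controls. The locus runs 60569 bases past the RefSeq end of the gene, so part of these windows lies outside H2afy. Every mutant library was above both controls (log2 fold change 0.64, SE 0.12, adjusted p = 0.00537, and 0.69, SE 0.12, adjusted p = 0.0101). Without control replicate 2 the log2 fold change was 0.53 and 0.58, and in the cDKO it was 0.69 without either mutant library. With values centred on named loci the cDKO value was 0.45 (adjusted p = 0.0792).

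H2afv, over 3 windows, gave 2.67 and 1.58 in the G9a cKO, 2.39 and 2.00 in the cDKO and 0.655 and 0.844 in the controls. The mutants were higher by 1.26 (SE 0.25, adjusted p = 0.00691) and 1.41 (SE 0.25, adjusted p = 0.0106) on the log2 scale. Without control replicate 1 these values were 1.07 and 1.22, and the cDKO value was 1.33 and 1.49 without cDKO replicate 1 or 2. RNA of H2afv was not called in either mutant.

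H2afz lies in 1 window, with 17 and 11 reads in the G9a cKO and 21 and 63 in the far deeper controls. Its ratio was 2.83 and 2.75 against 0.750 and 0.818 (log2 fold change 1.64, SE 0.36, adjusted p = 0.0104). H2afz had 1.57 and 1.70 on the log2 scale without control replicate 1 or 2. In the cDKO it gave 8 reads in each library (0.57, adjusted p = 0.368).

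H3f3b, over 3 windows, gave 1.22 and 1.86 in the cDKO against 0.643 and 0.619 in the controls (log2 fold change 1.12, SE 0.28, adjusted p = 0.0387). In the G9a cKO it gave 1.22 and 1.00 (0.62, adjusted p = 0.179). The cDKO call was lost when either control or either cDKO library was left out, with adjusted p-values of 0.221, 0.27, 0.142 and 0.157, and with values centred on named loci (0.88, adjusted p = 0.129). H3f3b was thus higher in the cDKO in both H3K9me2 and RNA, each with a call that did not hold in every setting.

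H1foo, H1f0, H3f3a and Npm2 passed in neither mutant. Npm2, lower in RNA, had a log2 fold change of H3K9me2 of -0.08 in the cDKO (SE 0.41, 95% interval -0.97 to 0.80, adjusted p = 0.929) from 8 and 16 reads. In the G9a cKO it was -0.86 (SE 0.41, adjusted p = 0.191), with both libraries below the controls. With 50 kb added on each side, 12 windows in place of 2, it was called lower (-0.47, adjusted p = 0.0316). With such flanks 4676 of 15007 named loci were called in the G9a cKO, 1623 of them lower. Over its own windows, H3f3a had 0.54 in the cDKO (SE 0.30, adjusted p = 0.306) and -0.06 in the G9a cKO (adjusted p = 0.92). H1foo had 0.33 in the G9a cKO and -0.57 in the cDKO, where H1f0 had -0.61 (adjusted p = 0.533, 0.287 and 0.28). The values of these 4 members rest on 5 to 20 reads per mutant library in 2 windows, a depth at which only large differences could be detected.

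**Figure D5:**
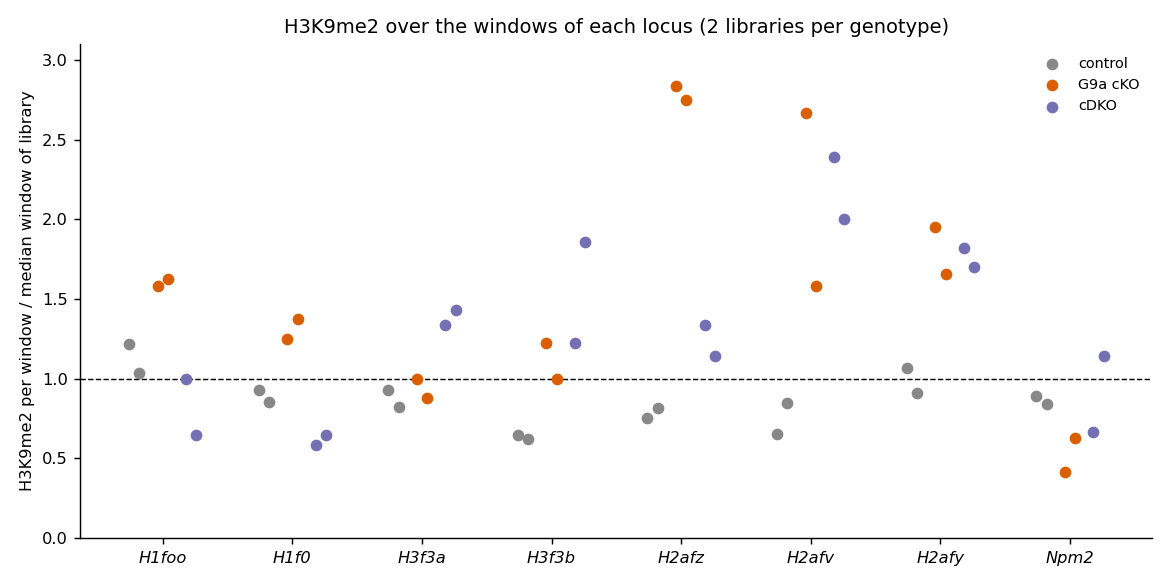
H3K9me2 over the windows of each member divided by the median window of the library (vertical axis), with 1 point per library for control (grey), G9a cKO (orange) and cDKO (violet) and a dashed line at 1. Both mutants lie above the controls at H3f3b, H2afz, H2afv and H2afy. At H1foo and H1f0 the G9a cKO points lie above the controls and the cDKO points below them, and at Npm2 the G9a cKO points lie below.

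Genes with the RNA pattern most like a member were taken for the 3 members with the largest fold change, by Pearson correlation of log2 RPM over the 11 libraries among 6940 named loci of at least 10 RPM. H3f3a was most like Blmh (0.95), Gnpnat1 (0.93) and Ercc6l (0.93). H2afv was most like Pax2 (0.89), Abcb9 (0.82) and Stxbp2 (0.81), and H2afz like Pkd1l3 (0.91), Lars2 (0.86) and Hace1 (0.84). The correlated values come from the same libraries and share their depth and grouping, and H2afz and H2afv rest on few reads.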

How the data were processed

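The authors deposited RNA and H3K9me2 tables as log2 values per library. The values equal log2 of reads scaled to the library total (RPM) with empty features set to 0.9 read, so whole reads were recovered (100% whole within 0.01 read). The submitters' processing notes name Trim Galore, Bowtie2, HISAT2 2.1.0, Bismark 0.19.0 and GRCm38, without roles. Strand use in counting is not given in the sources used here. In the H3K9me2 table, 4 columns match no sample and were not used. Bisulphite, input and IgG libraries were not analysed here.

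RNA was tested with limma 3.58.1 in R 4.3.3 on the deposited log2 values of all 38540 loci, with 1 mean per group over 11 libraries, variance trend and robust moderation, two-sided, and Benjamini-Hochberg adjustment over all loci. The design had allowed for other units. The log2 test was used. H3K9me2 reads were summed over the 10 kb windows of each named locus, taken as log2 of reads plus 0.5 scaled to the library total, and tested likewise over 14967 loci. The procedure was tested on simulated data. RefSeq symbols and synonyms matched all 10 listed genes, and promoters of 7 of the 8 measured members. Figures used matplotlib 3.10.9.

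Members and gene lists were chosen with earlier results of these data known. Named are all members, up to 3 called genes of at least 10 RPM per list, direction and mutant by fold change, and the 3 genes most alike for 3 members. Other list genes without a call are named as partners or paralogs of a member.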

Additional observations from a re-analysis of the deposited data

Results flagged for a closer look

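The effect in the cDKO differed from that in the G9a cKO, by the test of the difference itself over all loci, for 4 of the genes named. For that difference 1.08% of all loci were called, and 3.34% of those with at least 10 RPM. H3f3b had a difference of 0.53 (log2 scale) and Npm2 of -0.30, so the first was higher and the second lower in the cDKO relative to the G9a cKO. Chaf1a had a difference of -0.59 and Slbp of 0.51. The comparison uses different controls for each mutant, and for Slbp the GKAQ controls were lower than the GKAO controls (log2 -0.73, adjusted p = 2.07e-36 with limma). With all 6 controls as the common reference, the Slbp difference was -0.21. The Chaf1a and Slbp differences were not called with log2(RPM + 1) (adjusted p = 0.258 and 0.0709) or without the variance trend (0.232 for both), nor that of Chaf1a with voom weights (0.103). Those of H3f3b and Npm2 were not called in any of these 3 settings. The H3f3b difference kept its call in only 4 of 19 other settings and that of Npm2 in 10, against 16 each for Chaf1a and Slbp.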

How the results depend on the processing

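Beside the reported fit, 20 settings were tried for each mutant, 11 of which leave out a library. Of the values of single genes, 1301 kept direction and side of the threshold, 129 lost a call, 15 gained one and 33 changed sign. The count of members called in the G9a cKO, 1, was 0 with loci of at least 1 RPM, log2(RPM + 1), no variance trend or voom weights, and 0 to 1 with a library left out. In the cDKO the 3 members called became 1 without the variance trend, with all controls pooled and with the title number as a replicate block, and 1 to 3 with a library left out. The count called for the difference, 2, was 1 under both other scalings (Npm2) and with loci of at least 1 RPM (H3f3a gained, with H3f3b and Npm2 lost), 0 with log2(RPM + 1), no variance trend, voom weights or the block, and 0 to 4 with a library left out. Of the list genes, 3 were called in the G9a cKO, against 0 with log2(RPM + 1), 1 without the variance trend, 8 with pooled controls, 6 with the block and 1 to 5 with a library left out. In the cDKO 13 were called, against 8 with log2(RPM + 1), pooled controls or the block and 3 without the variance trend. Members called for H3K9me2, 3 in each mutant, numbered 1 in the cDKO when centred on named loci. With an H3K9me2 library left out, 1 group held a single library, so that count is not given. Centring moved the median of named loci in the cDKO from 0.18 to -0.06. For RNA it changed the calls in the cDKO from 1665 higher and 779 lower to 1290 higher and 1140 lower.

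Signs turned only for values that were not called, except the difference of Slbp, which was -0.21 with pooled controls. With pooled controls H3f3a and Slbp in the G9a cKO were 0.17 and 0.36. With the replicate block H3f3a and H3f3b in the cDKO were 0.57 and 0.26, and H2afv, H2afz and H1foo were -0.39, 0.36 and -0.039. Only 1 title number of the GKAQ series is shared, so under the block these values compare 1 cDKO library with 1 control. Counts of calls and of settings that include the block in the cDKO or for the difference rest on that pair too, and it cannot decide whether a call holds. H1foo in the cDKO was -0.078 centred and -0.061 with median-of-ratios scaling. For H3K9me2, H3f3a in the G9a cKO was 0.0025 with 1 read added, and with 50 kb flanks H1foo in the G9a cKO was -0.016 and H1f0 in the cDKO 0.027. With a library left out, RNA in the G9a cKO ranged from -0.38 to 0.10 for H2afy, -0.12 to 0.11 for the locus at the Hira position, -0.086 to 0.0090 for Chaf1a and -0.035 to 0.025 for Slbp. In the cDKO it ranged from -0.17 to 0.45 for H2afv, -1.12 to 0.98 for H2afz and -0.031 to 0.064 for H1foo. Between the controls it ranged from -0.48 to 0.16 for H2afv and -0.14 to 0.017 for H2afy, and H3K9me2 from -0.14 to 0.017 for H3f3a in the G9a cKO and -0.50 to 0.33 for Npm2 in the cDKO. The causes were not tested. The block rests on title numbers that the labels do not explain. Deviations of libraries with the same number correlated at 0.01 to 0.11 in the GKAO series, where pairs with different numbers gave -0.12 to 0.0027, and at 0.00035 for the only shared number of the GKAQ series, so not every pair passed the 0.1 set for treating libraries as paired. What the numbers mark was not tested. The block gave no value between the controls, and fitting only the groups compared gave none for the difference. H2afz in RNA, and the H3K9me2 of members with 1 to 3 windows, are limited by read number.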
